A study of Mus musculus with 12 samples.

Results

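The 10 genes described here encode core members of the heterogeneous nuclear ribonucleoprotein (hnRNP) family, and were taken as the entries with the symbols Hnrnpa1, Hnrnpa2b1, Hnrnpc, Hnrnpd, Hnrnpf, Hnrnph1, Hnrnpk, Hnrnpl, Hnrnpm, and Hnrnpu among the 22456 genes of the expression matrix. They were followed in 2 readouts: the level of each gene, and the use of its own exons. In the tables of skipped exons these genes held 120 of the 84592 events in fasted liver and 89 of the 75694 events in refed liver, and 45 events stood in both. An event is 1 exon with a given pair of flanking exons, so that the same exon, or exons that differ by a few bases, can give several events that share reads.

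The samples were livers of male BALB/cByJ mice, 2 to 8 months old, in 4 groups of 3: wild-type (Lpin1+/+) and Lpin1-/- littermates, each taken after a 16-hour fast in single cages or after the same fast followed by 5 hours of chow. The refed mice were thus also killed later in the day, and feeding and clock time cannot be told apart. Lpin1 encodes lipin 1, a phosphatidate phosphatase of glycerolipid synthesis that also acts with nuclear factors, and Lpin1-/- mice (fatty liver dystrophy) carry the loss in the germline, so it is not restricted to liver. The study asked how loss of lipin 1 alters mRNA splicing across fasting and feeding.

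These proteins coat nascent transcripts and bind short motifs in exons and introns, where they promote or repress the use of nearby splice sites. hnRNP A1 and A2/B1 bind UAG-rich motifs and commonly favor skipping, hnRNP F and H bind runs of G, hnRNP L binds CA repeats, and hnRNP K and its PCBP relatives bind C-rich RNA. Many of these genes splice their own transcripts in ways that change the protein or lead to nonsense-mediated decay, the pathway that destroys mRNA with a premature stop codon.

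Lpin1 was checked first. Its level in RPKM, a read count scaled to transcript length and library size, was 0.0368 to 0.0597 in the 3 fasted and 0.00573 to 0.0238 in the 3 refed Lpin1-/- libraries. In Lpin1+/+ it was 22.0, 0.726, and 1.76 in the fasted and 2.92, 0.784, and 2.76 in the refed libraries. Fasted Lpin1+/+ replicate 1 stood apart in Lpin1, and it also had the highest level of its group in all 10 hnRNP genes. Hepatocyte markers were high in every library, with a summed level of 35558 to 86379 RPKM. The summed level of 8 Kupffer cell or macrophage markers had a median of 178 RPKM (range, 123 to 260) in fasted Lpin1+/+ and 306 RPKM (range, 227 to 589) in fasted Lpin1-/- liver. The 7 stellate cell markers had medians of 154 and 250 RPKM (ranges, 66.1 to 155 and 195 to 286), and no marker was at 0 in all libraries. The part of these cells in the results below was not tested, and in whole liver fewer cells of a type and less RNA per cell cannot be told apart.

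All 10 genes were abundant. Their mean RPKM over the 12 libraries ranged from 12.5 for Hnrnpa1, above 80.7% of genes in the matrix, to 148 for Hnrnpa2b1, above 97.1%. Hnrnpa2b1 had the highest level in each of the 4 groups, with no overlap with the next gene, and Hnrnpa1 the lowest mean. In fasted Lpin1+/+ liver Hnrnpk came next with 79.1, 50.2, and 57.3 RPKM, above every library of Hnrnpc, Hnrnpf, and Hnrnpl but not of Hnrnpu, which reached 59.3 RPKM. Hnrnpc, Hnrnpu, Hnrnpf, and Hnrnpl had means of 37.3 to 37.4 RPKM, and neighbors in this order overlapped. Hnrnpm, Hnrnpd, and Hnrnph1 followed at means of 16.9 to 21.1 RPKM, again without separation.

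**Figure D1:**
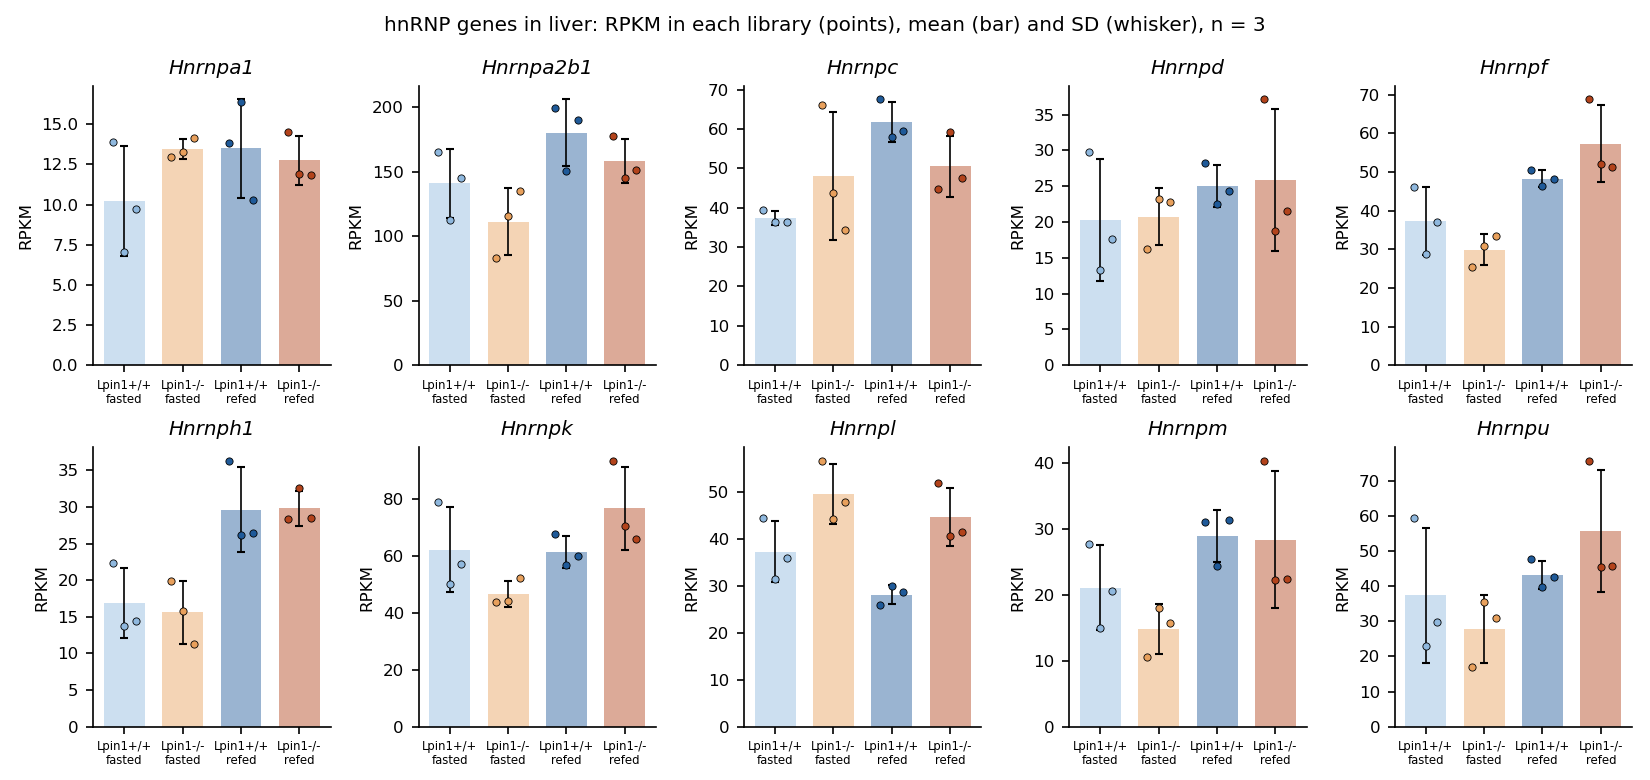
RPKM of the 10 hnRNP genes (1 panel each) in the 12 livers, with points for libraries, bars for the mean, and whiskers for the SD of 3 libraries in each group. Hnrnph1, Hnrnpf, and Hnrnpk were higher in all 3 refed than in all 3 fasted Lpin1-/- livers, and Hnrnpl was higher in all 3 refed Lpin1-/- than in all 3 refed Lpin1+/+ livers.

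Between genotypes none of these 10 hnRNP genes differed in level at an adjusted p under 0.05. Levels were compared as log2(RPKM + 1) with limma and Benjamini-Hochberg adjustment over 11507 genes, those with a mean level of 0.5 RPKM or more. Lpin1 itself did not pass, although its genotypes did not overlap in either state. Its log2 difference was -2.19 ± 0.72 (SE; adjusted p = 0.0562 by limma) when fasted and -1.55 ± 0.72 (adjusted p = 0.231) when refed. The test can thus miss a known difference. In fasted liver 0 of the 10 genes passed, where 18.8% of all genes did, and 1 (Hnrnpl) had an unadjusted p under 0.05. All 10 overlapped between the genotypes, while 32.9% of all genes did not. Their log2 differences between Lpin1-/- and Lpin1+/+ ran from -0.47 for Hnrnpm, a regulator of alternative exons, to 0.41 for Hnrnpa1, with a median of -0.20 beside -0.14 over all genes. In refed liver 0 of 10 passed, beside 6.67% of all genes, and 1 had an unadjusted p under 0.05. The genotypes did not overlap in 2 of the 10, Hnrnpl and Hnrnpf, beside 33.9% of all genes. The gene with the low unadjusted p was again Hnrnpl, whose protein is best known for its CA-repeat targets. It stood at 51.9, 40.7, and 41.4 RPKM in refed Lpin1-/- and 25.9, 29.9, and 28.7 RPKM in refed Lpin1+/+ liver. The groups did not overlap, and the log2 difference was 0.64 ± 0.18 (SE) with an adjusted p of 0.0558. The value was 0.75 with an adjusted p of 0.0464 after each library was rescaled by its median ratio to the others. The adjusted p was 0.0335 without fasted Lpin1+/+ replicate 1, which is not in this comparison, so the value stayed at 0.64. With a replicate block the adjusted p was 0.0710. Over 19 alternatives the adjusted p by limma ranged from 0.0335 to 0.189. In fasted liver Hnrnpl was at 56.7, 44.3, and 47.9 RPKM in Lpin1-/- and 44.4, 31.6, and 35.9 RPKM in Lpin1+/+ liver, where 1 pair of libraries crossed.

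With refeeding, hnRNP genes changed past the threshold in Lpin1-/- liver. Hnrnpf, Hnrnph1, and Hnrnpk rose, which is 3 of 10 beside 17.8% of all genes in that direction, and 0 of 10 fell. Hnrnpf, a binder of G runs, went from 25.4, 30.7, and 33.3 RPKM in the fasted to 68.8, 51.9, and 51.2 RPKM in the refed Lpin1-/- livers, with a log2 difference of 0.92 ± 0.20 (SE; adjusted p = 0.0093 by limma). Hnrnph1, its close relative, went from 19.8, 15.8, and 11.3 to 28.3, 32.6, and 28.5 RPKM, a log2 difference of 0.92 ± 0.24 (adjusted p = 0.0212 by limma). Hnrnpk, which binds C-rich RNA and DNA, went from 43.9, 44.1, and 52.1 to 93.4, 70.5, and 66.1 RPKM, a log2 difference of 0.69 ± 0.20 (adjusted p = 0.0326 by limma). For each of the 3 genes the lowest refed library lay above the highest fasted library, as it did for 6 of the 10 members. Groups without overlap, in either direction, were seen in 46.8% of all genes, and calls in either direction in 20.7%. Hnrnpu, which binds chromatin and RNA in the nuclear matrix, had the largest log2 difference of the 10 (0.99 ± 0.36) but an adjusted p of 0.0686, with 17.1, 35.6, and 31.1 RPKM in fasted and 75.7, 45.6, and 45.8 RPKM in refed livers. Hnrnpm was at 0.87 ± 0.29 (adjusted p = 0.0535 by limma). Hnrnpa1 and Hnrnpl had differences of -0.08 and -0.15, and Hnrnpc, Hnrnpd, and Hnrnpa2b1 of 0.11 to 0.52.

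Markers of other cells moved in the same livers. The summed level of the Kupffer cell or macrophage markers had a median of 306 RPKM (range, 227 to 589) in the fasted and 104 RPKM (range, 73.2 to 173) in the refed Lpin1-/- livers, without overlap. The stellate cell markers had medians of 250 and 193 RPKM with overlapping ranges (195 to 286 and 157 to 198). The 5 cholangiocyte markers summed to 24.9 to 451 RPKM in the fasted and 19.2 to 27.8 RPKM in the refed livers, with 1 fasted library within the refed range. The 5 lymphocyte markers, at low levels, had medians of 4.61 and 2.09 RPKM without overlap (2.50 to 6.10 and 1.09 to 2.14). Medians were 58.3 and 42.6 RPKM for the endothelial cell markers and 839 and 409 RPKM for the red blood cell markers, with overlapping ranges. The part of these cells in the rises of Hnrnpf, Hnrnph1, and Hnrnpk was not tested.

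The median of the 10 genes with refeeding in Lpin1-/- liver was 0.61, but the median of all genes was also above 0, at 0.25. After rescaling these medians were 0.36 and 0.06, and 1 of the 10 genes passed, Hnrnpf (0.67, adjusted p = 0.0301), while Hnrnph1 was at 0.68 (adjusted p = 0.0683) and Hnrnpk at 0.44 (adjusted p = 0.148). The share of all genes called in the rescaled fit is not given here. Hnrnpf was called with any single library left out. The call for Hnrnph1 was lost without any of 4 of the 6 Lpin1-/- libraries taken singly (adjusted p of 0.0516 to 0.0820), and that for Hnrnpk without any of 5 (0.0511 to 0.113). Without fasted Lpin1+/+ replicate 1 the genes called were 5, with Hnrnpm and Hnrnpu added. That library is not in this comparison, so the log2 differences of these added genes stayed at 0.87 and 0.99 and only their adjusted p moved.

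In Lpin1+/+ liver 0 of 10 genes passed with refeeding by limma, beside 1.72% of all genes, and 2 had an unadjusted p under 0.05. The median log2 difference was 0.37 over the 10 and 0.19 over all genes (0.14 over the 10 after rescaling). These were Hnrnph1 (22.4, 13.7, and 14.5 RPKM in fasted, 36.3, 26.1, and 26.5 in refed liver; log2 difference 0.80 ± 0.24, adjusted p = 0.148) and Hnrnpc, which binds U-rich tracts (39.3, 36.4, and 36.4 in fasted, 67.6, 58.0, and 59.6 in refed liver; 0.71 ± 0.22, adjusted p = 0.161). In both genes the fasted and refed libraries did not overlap, as in 4 of the 10 members and 18.1% of all genes. Hnrnpl lay lower in all 3 refed than in all 3 fasted Lpin1+/+ livers, at -0.38 ± 0.18 (adjusted p = 0.367). The difference between the genotypes in the response to feeding passed in 0 of 10 genes by limma, beside 1.28% of all genes, and 1 had an unadjusted p under 0.05 (Hnrnpk, 0.69 ± 0.29, adjusted p = 0.235). The feeding contrast in Lpin1-/- and the fasted genotype contrast share the fasted Lpin1-/- libraries, so their values are not independent.

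**Figure D2:**
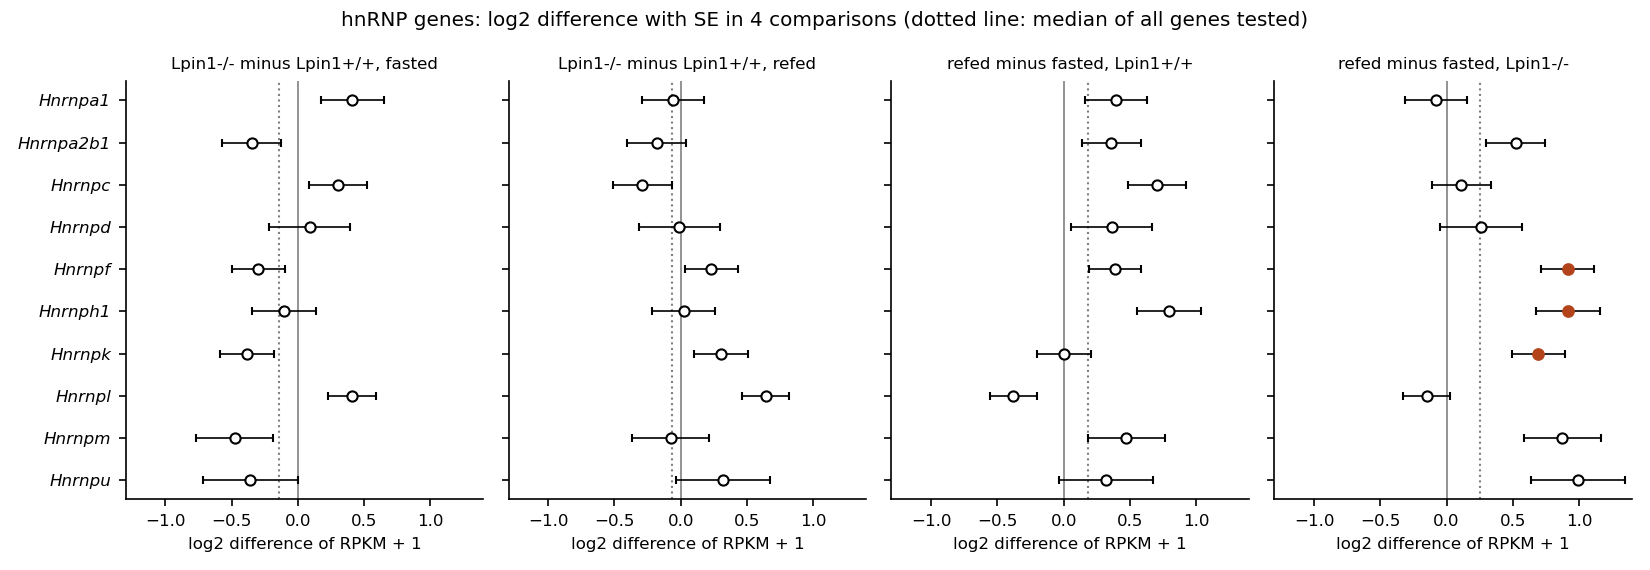
Log2 differences of RPKM + 1 for the 10 hnRNP genes, with SE, in the 4 comparisons. Filled points mark an adjusted p under 0.05 by limma, which only Hnrnpf, Hnrnph1, and Hnrnpk reach, with refeeding in Lpin1-/- liver, and the dotted line marks the median of all 11507 genes.

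Across the 12 libraries most of the 10 genes varied together. The correlation of a gene with the mean of the other 9, over libraries that also share the groups and their scaling, was 0.91 for Hnrnpf, 0.90 for Hnrnpu, 0.85 for Hnrnpm, 0.84 for Hnrnpd, 0.81 for Hnrnpk, 0.73 for Hnrnph1, and 0.72 for Hnrnpa2b1. It was 0.49 for Hnrnpa1, 0.22 for Hnrnpc, and -0.18 for Hnrnpl. The 5 genes most like the mean of the 10 members were Supt5, Phrf1, Urb2, Hcfc1, and Dnajc5, with r of 0.975 to 0.982 over 12 libraries among 11471 genes compared.

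Of 27 further family members and relatives, 26 passed the filter on low levels. Hnrnpdl, an hnRNP D-like protein, was higher in Lpin1-/- than in Lpin1+/+ liver when fasted (46.0 beside 17.3 RPKM; log2 difference 1.35 ± 0.19, adjusted p = 0.00133) and when refed (33.7 beside 15.8 RPKM; 1.03 ± 0.19, adjusted p = 0.0120). In refed liver Hnrnpll, an hnRNP L-like protein, was also higher in Lpin1-/- (23.5 beside 9.69 RPKM), as was Ptbp2, a polypyrimidine tract binding protein (4.60 beside 1.85 RPKM). With refeeding 10 of the 26 rose in Lpin1-/- liver (17.8% of all genes did) and 0 fell: Elavl1, Hnrnpa3, Hnrnpab, Hnrnpll, Hnrnpr, Khdrbs1, Pcbp1, Rbmx, Syncrip, and Tardbp, of which Rbmx and Tardbp had the largest log2 differences, 1.61 and 1.56. In Lpin1+/+ liver 1 of the 26 rose, Hnrnpa3 (0.98 ± 0.21), where 1.72% of all genes passed in either direction. Between genotypes 1 of the 26 passed when fasted (18.8% of all genes did) and 3 when refed (6.67%). For the difference in response 0 passed (1.28%). After rescaling these counts were 2, 4, and 1, with 7 for refeeding in Lpin1-/- and 0 in Lpin1+/+ liver. The share of all genes past the threshold after rescaling is not given here, so the rescaled counts have no comparator. Of 15 genes of the exon junction complex and nonsense-mediated decay, which reads that complex on spliced mRNA, Rbm8a was higher in fasted Lpin1-/- liver (52.8 beside 36.6 RPKM; 0.52 ± 0.16, adjusted p = 0.0468). Upf1, the helicase of this pathway, and Smg5 rose with refeeding in Lpin1-/- liver, by 1.29 ± 0.32 and 1.17 ± 0.32. These calls are 1 of 15 between fasted genotypes, beside 18.8% of all genes in either direction. With refeeding in Lpin1-/- liver they are 2 of 15, beside 17.8% of all genes rising. The other genes of this list did not pass in any contrast.

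The largest differences between genotypes in the exons of the 10 genes were in Hnrnpa1, Hnrnph1, and Hnrnpk, all toward skipping in fasted Lpin1-/- liver, and those of Hnrnpa1 and Hnrnph1 passed the test. For Hnrnpa1 this holds against a joining that skips both of the exons described below, not against every skipping path. Inclusion is the share of the form that keeps an exon against the skipping form of the same event, not a share of all transcripts. It comes from counts of inclusion (reads within the exon and on its junctions) and of skipping, each divided by the length of its form. The log2 ratio of both forms was tested by limma where an event held 10 or more counts in each library. In fasted liver 12 of 111 events (10.8%) differed between the genotypes, beside 11.3% of all events, and 26 had an unadjusted p under 0.05. Of the 12, 6 were in Hnrnpf, 2 in Hnrnpa1, and 1 each in Hnrnpa2b1, Hnrnph1, Hnrnpk, and Hnrnpl, while Hnrnpc, Hnrnpd, Hnrnpm, and Hnrnpu had 0. In 8 of the 12 the rarer form had a mean under 5 counts. Among the 52 events with a rarer form of at least 5 counts, 4 passed, beside 24.6% of all such events. When the fit and its adjustment covered such events alone, 8 of the 52 passed. The share of all such events called in that narrower fit is not given here, so the 8 have no comparator. In 31 of the 52, or 59.6%, the genotypes did not overlap, beside 49.6% of all such events. In refed liver 3 of 83 events passed, beside 0.97% of all events, and all 3 were in Hnrnpa1. With a library left out, the calls over all refed events went from 633 to between 0 and 15 and those of the 10 genes to 0 or 1, so both shares rest on all 6 libraries. These 3 had a rarer form of at least 5 counts, among 52 such events, beside 2.51% called of all such events. There the genotypes did not overlap in 17 of the 52, or 32.7%, beside 31.8% of all. Of the 93 exons in the fasted table, 34 were coding or coding in part in GENCODE M21, 10 were in UTR, 5 were in other transcript types, and 44 were not annotated as exons.

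Coding exons of Hnrnpa2b1, Hnrnph1, Hnrnpd, and Hnrnpk on which the results turn are shown with their place in GRCm38 and their gene strand, in the sense of the mRNA. Capitals mark GGG, the core of hnRNP F and H sites, and TAGG, the core of hnRNP A1 sites, searched on the sense strand with overlaps allowed, so that TAGGG counts as both.
Hnrnpa2b1 120-nt exon, chr6:51464428-51464547 (-): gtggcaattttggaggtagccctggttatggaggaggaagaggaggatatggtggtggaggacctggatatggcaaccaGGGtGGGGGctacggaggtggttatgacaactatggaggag
Hnrnph1 139-nt exon, chr11:50381459-50381597 (+): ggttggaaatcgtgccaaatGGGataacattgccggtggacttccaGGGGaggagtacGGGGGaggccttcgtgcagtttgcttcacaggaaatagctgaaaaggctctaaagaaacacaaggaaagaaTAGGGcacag
Hnrnpd 147-nt exon, chr5:99963731-99963877 (-): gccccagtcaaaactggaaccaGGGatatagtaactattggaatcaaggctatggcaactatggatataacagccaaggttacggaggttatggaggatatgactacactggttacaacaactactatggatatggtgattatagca
Hnrnpk 44-nt exon, chr13:58397753-58397796 (-): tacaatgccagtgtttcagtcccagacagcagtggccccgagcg
Of these 4 exons, the Hnrnph1 exon holds TAGG, at 1 position, and 11.2% of the 969 annotated internal exons of that length do. GGG was found at 7 positions in the Hnrnph1 exon, 4 in the Hnrnpa2b1 exon, 1 in the Hnrnpd exon, and 0 in the Hnrnpk exon. GGG is common: 78.5%, 71.5%, 77.9%, and 32.8% of internal exons of the same lengths hold it, in that order.

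In Hnrnpa1, transcripts that join the exon before the 159-nt exon directly to the exon after the 156-nt exon, without both, were found almost only in Lpin1-/- liver. This joining took 90, 140, and 93 reads in the fasted and 40, 21, and 15 reads in the refed Lpin1-/- libraries. In Lpin1+/+ it took 0, 1, and 0 reads in the fasted and 0, 0, and 0 in the refed libraries. Each Lpin1-/- library was above each Lpin1+/+ library. All 5 called events of Hnrnpa1 in the 2 tables rest on these same skipping reads, so they are not separate findings. The 159-nt exon distinguishes the longer from the shorter forms of hnRNP A1 and lies, with the 156-nt exon, in the part of the gene that encodes the glycine-rich C-terminal domain. Both lengths are multiples of 3. Of 5 annotated Hnrnpa1 transcripts, 4 hold the 156-nt exon and 2 the 159-nt exon, and 1 protein-coding transcript has the joining that skips both.

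For the 156-nt exon, inclusion against this joining was 52.1%, 41.8%, and 56.6% in fasted Lpin1-/- and 100%, 98.9%, and 100% in fasted Lpin1+/+ liver. The difference was -49.4 percentage points (adjusted p = 0.000726 by limma). When refed, inclusion was 81.7%, 87.9%, and 90.8% in Lpin1-/- and 100% in all 3 Lpin1+/+ livers, a difference of -13.2 points (adjusted p = 0.00971 by limma). In refed Lpin1+/+ liver 0 of 1801 reads of this event skipped the exon, which allows a share of up to 0.167%, counting error only. For the 159-nt exon, inclusion against the same joining was 10.7%, 7.88%, and 11.4% in fasted Lpin1-/- and 100%, 82.7%, and 100% in fasted Lpin1+/+ liver, a difference of -84.2 points (adjusted p = 0.000795 by limma). It was 37.5%, 40.6%, and 40.4% beside 100% in each library in refed liver, a difference of -60.5 points (adjusted p = 0.0051 by limma). The third refed event, a 152-nt form of the 156-nt exon that GENCODE M21 does not list, differed by -14.1 points.

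Against the other skipping path, in which the exon before is joined to the 156-nt exon, the 159-nt exon was included at 35.8%, 46.8%, and 36.3% in fasted Lpin1-/- and 32.6%, 27.6%, and 24.5% in fasted Lpin1+/+ liver. These groups did not overlap, but the difference of 11.4 points did not pass (adjusted p = 0.487 by limma). In refed liver the values overlapped, at 25.6% to 42.6% and 31.9% to 48.3%. The fasted calls of the 159-nt and 156-nt exons held with any single library left out (adjusted p of at most 0.0209). The refed calls were lost without any 1 library (adjusted p of 0.0589 to 0.0910), except that of the 159-nt exon without the second-listed Lpin1-/- library. With weights from the precision of the counts, the refed 156-nt exon had an adjusted p of 0.0714 and the 159-nt exon of 0.0233. Ratios to a form with 0 reads depend on the 0.5 added to each count, so shares and reads are given here rather than folds. The genome also holds 2 annotated pseudogenes named after Hnrnpa1, and how reads that match both were counted is not given in the sources used here.

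With refeeding of Lpin1-/- mice, inclusion of the 156-nt exon against the joining that skips both exons rose by 36.6 percentage points (log2 ratio change 2.74 ± 0.70, adjusted p = 0.0269 by limma). Against the same joining, that of the 159-nt exon rose by 29.5 points (2.54 ± 0.71, adjusted p = 0.0391). In Lpin1+/+ liver the changes were 0.368 and 5.75 points. The difference between genotypes in the response to feeding did not pass for either exon (adjusted p = 0.468 and 0.816). The feeding calls in Lpin1-/- liver were lost without some single libraries, at adjusted p of up to 0.0973 for the 156-nt exon and 0.118 for the 159-nt exon. The level of the gene did not pass in any comparison, with 13.5 ± 0.618 RPKM in fasted and 12.8 ± 1.52 RPKM in refed Lpin1-/- liver.

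**Figure D3:**
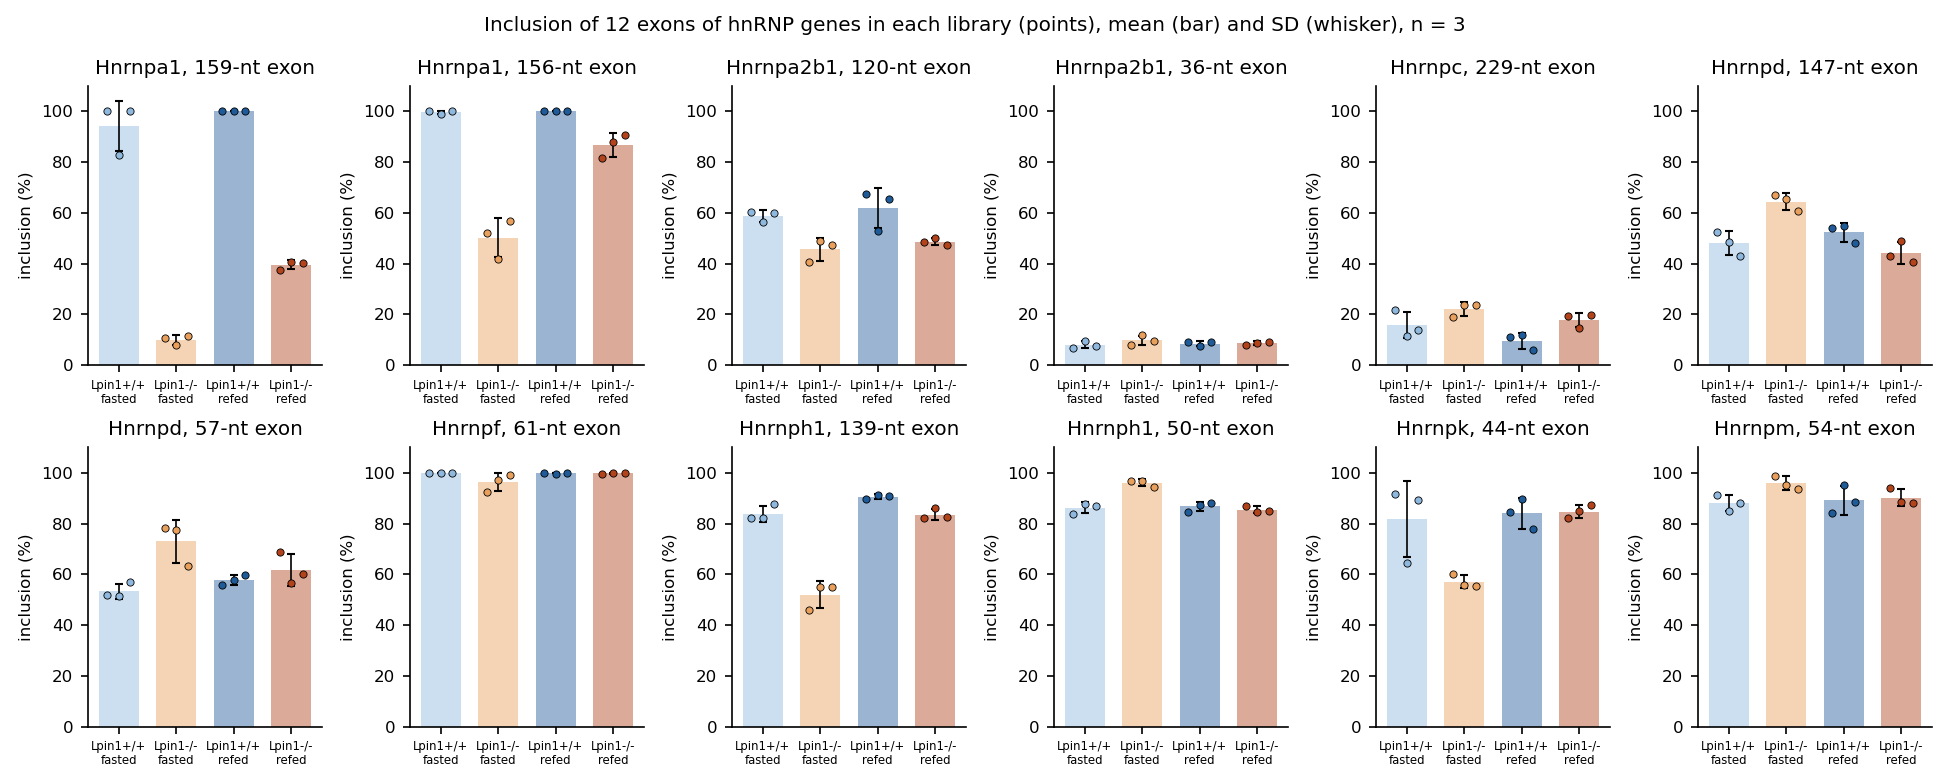
Inclusion (%) of 12 exons of hnRNP genes in the 12 livers, with points for libraries, bars for the mean, and whiskers for the SD of 3 libraries. The Hnrnpa1 156-nt and Hnrnph1 139-nt exons are lowest in fasted Lpin1-/- liver (means of 50.2% and 52.0%), and the 36-nt exon of Hnrnpa2b1 has group means of 8.01% to 9.83%. Both Hnrnpa1 exons are measured against the joining that skips them both.

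Hnrnph1 was the other gene with a large called difference in fasted liver. Its 139-nt coding exon, whose length is not a multiple of 3, was included at 82.2%, 82.1%, and 87.6% in fasted Lpin1+/+ and 45.9%, 55.0%, and 55.0% in fasted Lpin1-/- liver. The groups did not overlap, and the difference was -32.0 points (log2 ratio change -2.27 ± 0.62, adjusted p = 0.0339 by limma). Reads that skipped it numbered 62 of 1043 in the 3 Lpin1+/+ and 129 of 549 in the 3 Lpin1-/- libraries. When refed, inclusion was 89.7%, 91.3%, and 91.0% in Lpin1+/+ and 82.0%, 86.2%, and 82.4% in Lpin1-/- liver. The groups still did not overlap, and the difference of -7.11 points did not pass (adjusted p = 0.468). With refeeding in Lpin1-/- liver inclusion rose by 31.6 points (2.23 ± 0.47, adjusted p = 0.00998 by limma), beside 6.70 points in Lpin1+/+ liver. The test of the difference between the genotypes in this response gave an adjusted p of 0.392. The fasted call was lost without any of 5 of the 6 libraries taken singly (adjusted p of 0.0773 to 0.140). Of 18 annotated transcripts, 5 hold this exon, and its skipping junction is annotated in 1, a processed transcript without a listed reading frame.

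A 50-nt exon of Hnrnph1 farther downstream, at chr11:50385141-50385190, went the other way. It was included at 96.9%, 96.9%, and 94.5% in fasted Lpin1-/- and 83.8%, 87.8%, and 87.1% in fasted Lpin1+/+ liver (difference, 9.88 points; adjusted p = 0.0736 by limma). It passed with a minimum of 50 counts (adjusted p = 0.0395), with 1 added to each count (0.0451), with precision weights (0.0191), among events with a rarer form of at least 5 counts (0.0132), in the fit of all 12 libraries (0.0136), and without the third-listed Lpin1-/- library (0.0496). In the rest of the 13 alternatives it did not pass, including those without each other library, with an adjusted p of up to 0.207 by limma. In refed liver the groups overlapped, at 84.5% to 87.1% and 84.7% to 88.2%. Inclusion fell by 10.6 points with refeeding in Lpin1-/- liver (log2 ratio change -2.07 ± 0.50, adjusted p = 0.0205 by limma), a call lost without any of 4 of the Lpin1-/- libraries taken singly (0.0597 to 0.0715). The difference between the genotypes in this response had an adjusted p of 0.182, and 0.0438 with precision weights. This exon, and those of Hnrnpk (44 nt), Hnrnpd (57 nt), and Hnrnpa2b1 (36 nt) below, were chosen after their values were seen.

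Hnrnpa2b1, the most abundant of the 10 genes, had its best-covered event in a 120-nt coding exon, with 1029 to 2612 inclusion and 458 to 715 skipping reads per fasted library. Inclusion was 60.5%, 56.3%, and 60.0% in fasted Lpin1+/+ and 40.5%, 49.0%, and 47.5% in fasted Lpin1-/- liver. In refed liver it was 67.4%, 52.9%, and 65.3% beside 48.4%, 50.2%, and 47.5%. The genotypes did not overlap in either state, and the differences were alike in size, -13.3 and -13.1 points, but neither passed (adjusted p = 0.452 and 0.538 by limma). With precision weights the fasted difference had an adjusted p of 0.0231 and the refed difference of 0.0964. Refeeding moved inclusion by 3.05 points in Lpin1-/- and 2.92 points in Lpin1+/+ liver, and neither passed. This exon encodes part of the glycine-rich domain, its length is a multiple of 3, and of 13 annotated transcripts 4 hold it and 3 skip it. The 36-nt exon at chr6:51467391-51467426, which turns the A2 into the B1 form of the protein, was included at 6.85% to 9.55% in fasted Lpin1+/+, 8.08% to 11.7% in fasted Lpin1-/-, 7.48% to 9.13% in refed Lpin1+/+, and 7.98% to 9.22% in refed Lpin1-/- liver, with overlap throughout. The 1 called event of the gene was the same 120-nt exon against a longer skip, with 0 to 4 skipping reads per library.

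Hnrnpd encodes AUF1, an AU-rich element binding protein whose 4 forms differ by exons of 57 and 147 nt. The 147-nt exon stood at 66.9%, 65.5%, and 60.6% beside 52.5%, 48.6%, and 43.1% in fasted Lpin1+/+ liver (difference, 16.3 points; adjusted p = 0.343 by limma). The 57-nt exon, at chr5:99976534-99976590, stood at 78.2%, 77.5%, and 63.4% beside 52.1%, 51.4%, and 56.8% (19.6 points; adjusted p = 0.228). Neither passed, although no library of one genotype reached the other. In refed liver the genotypes overlapped in both, and the 147-nt exon was on average 8.08 points lower in Lpin1-/-. With precision weights the 147-nt exon passed in fasted liver (adjusted p = 0.0301), with refeeding in Lpin1-/- liver (0.0011), and in the difference between the responses (0.0489). In the fit without weights these p-values were 0.343, 0.118, and 0.323.

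Hnrnpk had a 44-nt coding exon, not a multiple of 3, that was included at 60.1%, 56.0%, and 55.4% in fasted Lpin1-/- and 91.9%, 64.6%, and 89.2% in fasted Lpin1+/+ liver. The second-listed Lpin1+/+ library lay close to the Lpin1-/- libraries, and the difference of -24.7 points did not pass (adjusted p = 0.111 by limma) but did without that library (0.0423). In refed liver all 6 libraries lay between 77.8% and 89.7%. Of 34 annotated transcripts 14 hold this exon, and the 3 that skip it are annotated as targets of nonsense-mediated decay. A 210-nt form of another exon, not annotated as such, was the best-covered event of the gene, at 5.26% to 12.3% in the 6 fasted libraries.

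The best-covered event of Hnrnpf, a 60-nt exon of the 5′ UTR (chr6:117907149-117907208), was included at 39.7%, 47.4%, and 41.5% in fasted Lpin1-/- and 33.0%, 35.0%, and 38.0% in fasted Lpin1+/+ liver (adjusted p = 0.671 by limma). A 61-nt 5′ UTR exon (chr6:117919099-117919159) was included at 92.4%, 97.2%, and 99.2% in fasted Lpin1-/- and 99.8%, 100%, and 100% in fasted Lpin1+/+ liver (adjusted p = 0.0116 by limma; 0.106 with precision weights, and 0.0589 to 0.0676 without any of 3 libraries taken singly), and at 99.4% or more in all refed libraries. The other 5 called events of Hnrnpf had means of 1.17 to 4.67 reads for the rarer form. In Hnrnpc a 229-nt 5′ UTR exon (chr14:52098316-52098544) was included at 19.2%, 14.7%, and 19.8% in refed Lpin1-/- and 6.08% to 11.7% in refed Lpin1+/+ liver, without overlap and without a call (adjusted p = 0.409 by limma), and in fasted liver the groups overlapped. In Hnrnpm a 54-nt coding exon (chr17:33652273-33652326) stood at 98.9%, 95.2%, and 93.7% in fasted Lpin1-/- and 91.3%, 84.9%, and 88.3% in fasted Lpin1+/+ liver (adjusted p = 0.158 by limma). In Hnrnpl a 70-nt exon (chr7:28817335-28817404) found in 1 decay target and 1 retained-intron transcript was at 6.54% to 16.4% in the 6 fasted libraries, with overlap, as was a 115-nt stretch of Hnrnpu (chr1:178335283-178335397) at 0.963% to 4.61%.

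**Figure D4:**
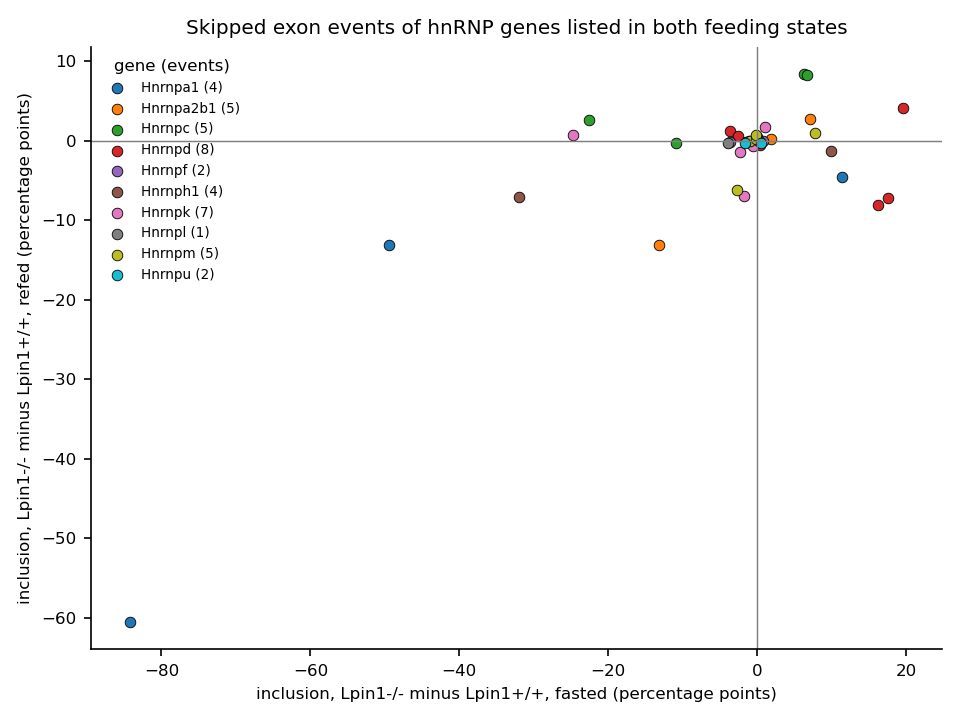
Difference in mean inclusion between Lpin1-/- and Lpin1+/+ liver, in percentage points, when fasted (x axis) and refed (y axis), for the 43 events of hnRNP genes tested in both states, with 1 point per event colored by gene. The absolute difference exceeded 10 points in 11 events when fasted and in 3 when refed, and the points farthest from the origin are the Hnrnpa1 159-nt exon (-84.2 and -60.5) and 156-nt exon (-49.4 and -13.2). These Hnrnpa1 values are against the joining that skips both exons.

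Of the 43 events tested over all 12 libraries, 6 (14.0%) changed with refeeding in Lpin1-/- liver, beside 7.8% of all events, and 15 had an unadjusted p under 0.05. They were the 2 exons of Hnrnpa1, the 2 of Hnrnph1, and 61-nt and 75-nt exons of Hnrnpf with 0 to 23 reads for the rarer form per library. The call of the 61-nt exon was lost without any of 4 of the 6 Lpin1-/- libraries taken singly, at adjusted p of 0.0855 to 0.142. In Lpin1+/+ liver 0 of 43 passed by limma, beside 0% of all events, with 2 at an unadjusted p under 0.05. For the difference in response 0 of 43 passed, beside 0.777% of all events, with 8 at an unadjusted p under 0.05. With precision weights 2 of 43 passed for the difference in response, the 50-nt exon of Hnrnph1 and the 147-nt exon of Hnrnpd. The share of all events called in the weighted fit is not given here, so this count has no comparator.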

How the data were processed

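Livers of 12 mice were sequenced as paired reads from a stranded kit, 3 per group, and grouped by the labels. Reads were mapped by the authors to GRCm38 with HISAT2 (2.0.5) and assigned to genes with HTSeq (0.6.0), and RPKM was deposited for each gene and library. The deposited rMATS tables give inclusion and skipping read counts and form lengths of each event as lists of 3 libraries without replicate numbers. Columns with the authors' own p-values and FDR, and 3 tables that hold their selections, were not used. Which list belongs to which genotype was checked on a table of fasted and refed Lpin1+/+ liver: it shares 1524 and 1719 events with the fasted and refed tables, and the Lpin1+/+ lists of all of these are identical.

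Levels were fitted as log2(RPKM + 1) in 1 limma (3.58.1, R 4.3.3) model of the 4 groups with a variance trend, over 11507 genes whose mean was 0.5 RPKM or higher, and differences on this scale understate the change of low genes. For events, 0.5 was added to the counts of both forms, each was divided by the length of its form, and limma was run on their log2 ratio, where each library held 10 counts or more: 69644 fasted events, 65231 refed events, and 28447 of the 34416 events in both tables over 12 libraries. Benjamini-Hochberg adjustment ran over all features of a fit, with a threshold of 0.05. Both fits were also run on simulated data. For events these data had an assumed spread and large changes planted in well-covered events only. They do not cover smaller changes or events with few reads of the rarer form. With 3 libraries against 3, an exact permutation test cannot go below 0.1. Replicate numbers in the labels are not tied to a litter or day there. The deviations of same-number libraries from their group means correlated over 0.1 in all 3 pairs of the refed genotype comparison (0.162 to 0.297), in 0 of 3 between fasted genotypes, and in 1 and 0 of 3 with refeeding in Lpin1+/+ and Lpin1-/-. Same-number libraries of fasted Lpin1+/+ and refed Lpin1-/-, groups not compared directly, correlated at 0.390 to 0.743, and a different-number pair of these groups at 0.628. These values thus cannot settle a pairing. The main fits were unpaired, and a replicate block was run as an alternative. Files were read with Python 3.11.15 and pandas 2.3.3, and figures drawn with matplotlib 3.10.9. Positions and exon sequences are those of GENCODE M21 transcripts on GRCm38. The sequences of the Hnrnpa1 exons are not reported here. GGG and TAGG were counted in annotated internal exons of protein-coding transcripts.

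Genes and exons named were Lpin1, the 10 members, those of 27 further hnRNP genes and 15 decay genes past the threshold, the 5 genes most correlated with the member mean, the exon of each member with the most reads for its rarer form in fasted liver, and up to 3 called exons per member with a rarer form of at least 5 counts and no overlap, with 4 further exons chosen after their values were seen. The members and lists were chosen with earlier results of these data known. The RPKM values give no depth. The members' events held 42335 to 84089 inclusion and 12271 to 27383 skipping counts per library. The median SD of a gene between replicates was 0.219 to 0.335 on the log2 scale. Alternatives are given in the closing section.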

Additional observations from a re-analysis of the deposited data

How the results depend on the processing

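Levels were tested again with another pseudocount, filter or scaling, in the 6 libraries compared alone, with a replicate block, and with each library left out, and events with other count minimums, 1 added to each count, precision weights, 1 event per exon, and each library left out. Counts of members called that moved by over 1.5 times were these. For expression in refed genotypes the count of 0 became 1 with a minimum of 5 RPKM and after rescaling, and was 0 to 1 with a library left out. With refeeding in Lpin1-/- liver, 3 became 1 after rescaling and 1 to 5 with a library left out. For events, 12 in fasted liver became 6 with 1 event per exon and 3 to 13 with a library left out, and 3 in refed liver became 5 with precision weights and 0 to 1 with a library left out. The fasted count of 8 among events with a rarer form of at least 5 counts did not move past this limit. With refeeding in Lpin1-/- liver, 6 events became 13 with precision weights and 2 to 7 with a library left out, and 0 for the difference in response became 2 with precision weights. Calls over all features moved too, and are given here only for a library left out. With a library left out, those in refed events went from 633 to 0 to 15, in fasted events from 7892 to 3815 to 9512, in joined events with refeeding in Lpin1-/- from 2220 to 1078 to 2783, and for their difference in response from 221 to 6 to 438. Genes called went from 2168 to 1037 to 2313 between fasted and from 767 to 242 to 1046 between refed genotypes, from 198 to 23 to 229 and 2382 to 1122 to 3108 with refeeding in Lpin1+/+ and Lpin1-/-, and from 147 to 30 to 191 for the difference in response. The cause was not tested, except that fewer libraries or fewer events entered some fits.

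Of 1902 gene or exon values recomputed, 56 changed sign, and 0 of these were past the threshold as reported. After rescaling the log2 difference became 0.052 for Hnrnpa1, 0.10 for Hnrnpd, and 0.039 for Hnrnpm between refed genotypes, 0.019 for Hnrnph1 between fasted genotypes, -0.23 for Hnrnpk with refeeding in Lpin1+/+ liver, and -0.13 for Hnrnpc with refeeding in Lpin1-/- liver. With precision weights the difference in response became -0.076 for the Hnrnpa1 159-nt exon and 0.010 for the Hnrnpa2b1 120-nt exon, and the feeding change in Lpin1+/+ liver became -0.13 for the Hnrnpm 54-nt exon. With a library left out, the fasted genotype difference ranged from -0.16 to 0.39 for Hnrnpd, -0.28 to 0.11 for Hnrnph1, and -0.64 to 0.027 for Hnrnpu, and the refed one from -0.23 to 0.084 for Hnrnpa1, -0.30 to 0.18 for Hnrnpd, -0.058 to 0.17 for Hnrnph1, and -0.35 to 0.065 for Hnrnpm. The feeding difference ranged from -0.13 to 0.19 for Hnrnpk in Lpin1+/+ liver, and in Lpin1-/- liver from -0.10 to 0.36 for Hnrnpc and -0.024 to 0.45 for Hnrnpd. The difference in response ranged from -0.028 to 0.32 for Hnrnpa2b1, -0.41 to 0.14 for Hnrnpd, and -0.087 to 0.30 for Hnrnph1. For exons left with 5 libraries, the log2 ratio change between fasted genotypes was -0.50 to 0.17 for the Hnrnpk 210-nt exon, and between refed genotypes -0.35 to 0.60 for the Hnrnpm 54-nt, -0.065 to 0.10 for the Hnrnpa2b1 36-nt, -0.28 to 0.35 for the Hnrnpk 44-nt, and -1.57 to 0.27 for the Hnrnpf 61-nt exon. With refeeding in Lpin1+/+ liver it was -0.030 to 1.22 for the Hnrnpf 61-nt, -0.0096 to 0.25 for the Hnrnpa2b1 36-nt, -0.063 to 0.20 for the Hnrnph1 50-nt, -0.77 to 0.52 for the Hnrnpk 44-nt, and -0.25 to 0.69 for the Hnrnpm 54-nt exon. The difference in response was -0.28 to 0.16 for the Hnrnpa2b1 120-nt exon.

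With the replicate block the members called were 0, 0, 0, 3, and 0 for fasted genotypes, refed genotypes, feeding in Lpin1+/+, feeding in Lpin1-/-, and the difference in response, as without it. In the 6 refed libraries alone, an alternative chosen after seeing the data, the block also called 0, with Hnrnpl at an adjusted p of 0.105. For events, no paired analysis was possible because the deposited lists carry no replicate numbers, and a library left out there is a position in a list. Depth limits events whose rarer form had under 5 counts.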
